A study of Mus musculus with 12 samples.

Results

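The genes described here are 10 markers of the smooth muscle contractile programme: Acta2, Actg2, Tagln, Cnn1, Cnn2, Myh11, Smtn, Cald1, Lmod1 and Myocd. They were listed by name, with earlier results of these data known, and found as the array probes whose RefSeq accession belongs to 1 of these symbols. All 10 have a probe, among 17178 genes with a named probe, and 15 probes carry them. The cells are C3H/10T1/2, a line of mouse embryonic fibroblasts with the potential to become muscle, fat, bone or cartilage. The groups were shSix4 cells with MyoD, shLuc cells with MyoD, shSix4 cells with the empty pBABE retrovirus and shLuc cells with the empty pBABE retrovirus, with 3 arrays each. shSix4 names a stable line with a short hairpin against the homeobox gene Six4, and shLuc the line with the control hairpin. All 4 groups thus carried a hairpin and a retrovirus, and all were moved 24 h after infection into medium with 2% horse serum for a further 24 h. Each hairpin is represented by 1 line, the labels do not say whether the lines are clones or pools or whether replicates were separate cultures, so the p-values cover the spread among these samples, which can be technical.

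The smooth muscle programme is built on actins, on the proteins that sit along the actin filament and restrain myosin, and on a smooth muscle myosin heavy chain. Many of its genes are switched on by serum response factor (SRF), which binds CArG boxes together with the cofactor myocardin or the related MRTF proteins. Fibroblasts express part of this set, and its actins and calponins are also markers of the myofibroblast. MyoD is the skeletal muscle determination factor and binds E-boxes, and Six4 and its relatives bind MEF3 sites in skeletal muscle genes. The design asks what MyoD and the loss of Six4 do in these cells. Here the MyoD effect in each line is set beside the effect of the hairpin line with each vector.

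Levels are log2 of the array signal minus the 75th percentile of that array, so a level of 0 is the signal at that percentile. They compare samples for 1 probe and not 1 probe with another. Each array had 22318 to 27448 probes well above background among 41174. The 12 arrays lie on 3 slides, and slide 1 holds replicate 1 of every group, slide 2 replicate 2 and slide 3 replicate 3. Slide 1 was scanned on another day than slides 2 and 3. Each group had the same place on every slide, so group and place on the slide cannot be told apart. Six4 read -3.03, -2.93 and -1.54 in shSix4 cells with MyoD, and -1.45, -1.70 and -0.85 in shLuc cells with MyoD. With empty vector it read -4.10, -3.00 and -2.82 in shSix4 cells, and -2.62, -2.90 and -1.64 in shLuc cells. It was thus lower in shSix4 cells on each slide with either vector, with groups that overlapped. The difference with MyoD was -1.17 ± 0.49 (limma SE, adjusted p = 0.558). In the blocked fit it was 0.0424, and the 26 alternatives spanned 0.0356 to 0.961. The difference with empty vector was -0.92 ± 0.49 (adjusted p = 0.999, and 0.168 with the block). All 8 skeletal muscle markers listed were called higher with MyoD in both lines, against 2.79% of all genes in shSix4 and 4.72% in shLuc cells. Myog, Myh3, Ckm and Chrna1 among them entered the test only through the MyoD groups, where they are high. With empty vector these were above background on 0 arrays of shSix4 cells and on 0 or 1 array of shLuc cells. With MyoD the values of the listed markers were lower in shSix4 than in shLuc cells for 8 of 8, with a median difference of -1.51. Of them 1 fell without the block, against 0.163% of all genes, and 4 fell with it, against 2.59% of all genes. Myod1 read -2.17, -0.86 and -0.23 in shSix4 cells with MyoD, against 0.07, -0.23 and 1.23 in shLuc cells with MyoD. That was lower on each slide, by -1.45 ± 0.81 (adjusted p = 0.837, and 0.152 with the block), in a fit that left out the outlier-marked Myod1 spots of both empty-vector arrays on slide 3. The part of these differences in the line comparisons of the smooth muscle genes was not tested.

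The set of RefSeq start sites used here (assembly GRCm38.p6) holds 6 of the 10 genes, with 7 starts in all. It lacks Actg2, Tagln, Myh11 and Myocd. The 250 bases before the start are shown for the first actin and for both calponins, since these carry the changes described later. Capitals mark CArG boxes, and near-CArG boxes in which 1 of the 6 middle bases is G or C, on either strand.
Acta2 (chr19:34255374-34255623, minus strand): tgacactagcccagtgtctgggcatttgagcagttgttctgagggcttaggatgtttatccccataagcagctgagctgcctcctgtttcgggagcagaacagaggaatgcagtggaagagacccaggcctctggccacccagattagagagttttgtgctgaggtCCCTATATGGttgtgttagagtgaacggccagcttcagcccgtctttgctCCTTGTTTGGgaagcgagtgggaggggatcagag
Cnn2 (chr10:79988350-79988599, plus strand): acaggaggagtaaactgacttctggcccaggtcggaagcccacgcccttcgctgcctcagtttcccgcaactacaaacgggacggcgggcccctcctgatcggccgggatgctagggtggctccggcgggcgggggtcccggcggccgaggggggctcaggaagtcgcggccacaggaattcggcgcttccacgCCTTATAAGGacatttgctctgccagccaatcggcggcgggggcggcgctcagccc
Cnn1 (chr9:22099003-22099252, plus strand): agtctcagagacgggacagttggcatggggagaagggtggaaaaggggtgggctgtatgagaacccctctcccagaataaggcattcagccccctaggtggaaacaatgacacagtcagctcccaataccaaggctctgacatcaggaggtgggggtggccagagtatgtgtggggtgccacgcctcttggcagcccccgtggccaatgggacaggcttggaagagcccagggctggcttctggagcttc
Cnn2 has 1 CArG box, whose first base is 56 bases before the start, and 1.47% of 32851 promoters hold one in the same window. Acta2 has 2 near-CArG boxes, 84 and 34 bases before the start, a match that 7.24% of promoters hold. Neither form was found in these windows of Cnn1, Smtn, Lmod1 or either start of Cald1. The E-box (CANNTG) occurs 3 times in the Acta2 window and 1 time each in those of Cnn1, Cnn2 and Lmod1. It occurs 1 and 2 times at the 2 starts of Cald1 and 0 times in the Smtn window, and 66.2% of promoters hold at least 1. The MEF3 site (TCAGGTT) occurs in the Lmod1 window, 39 bases before the start, and in 3.49% of promoters. A match describes the letters only, and these windows are not the genes' whole regulatory regions.

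Of the 10 genes, 8 were well above background on all 12 arrays: the actins Acta2 and Actg2, the calponins Cnn1 and Cnn2, and Tagln, Smtn, Cald1 and Lmod1. Myh11, the smooth muscle myosin heavy chain and the marker most specific to mature smooth muscle, was well above background on 5 of 12 arrays. With MyoD these were 2 arrays of shSix4 and 1 of shLuc cells, and with empty vector 0 arrays of shSix4 and 2 of shLuc cells. Myocd, which encodes the cofactor myocardin, was well above background on 0 of 12 arrays by 1 of its probes and on 2 of 12 by the other. Neither gene met the condition of 3 such arrays in 1 group, so both were left out of the test and no change is given for them. With MyoD, Myh11 lay between -5.95 and -5.19 in shSix4 cells and between -6.54 and -5.58 in shLuc cells. With empty vector it lay between -5.83 and -5.53 in shSix4 cells and between -5.61 and -4.83 in shLuc cells. The groups overlapped, and the lowest level that counted as above background was -6.69 to -4.86, depending on the array.

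**Figure D1:**
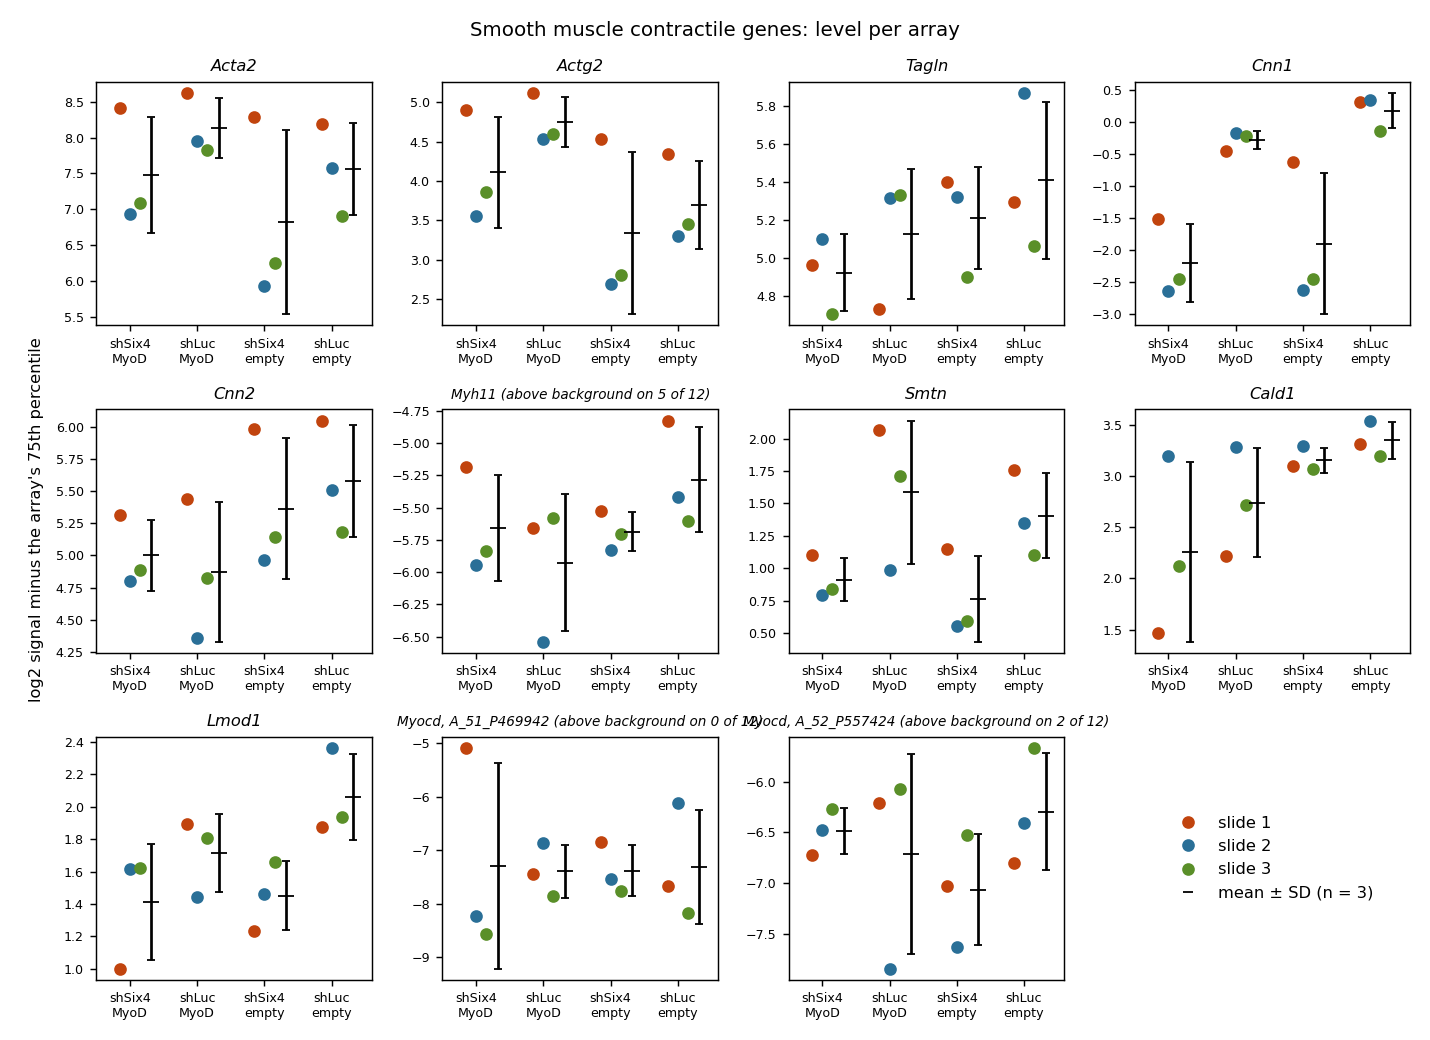
Level of each gene on each array (vertical axes, log2 signal minus the array's 75th percentile, 1 scale per panel) in the 4 groups, coloured by slide, with mean ± SD (n = 3). Acta2 and Actg2 are highest on slide 1 in every group, Cnn1 is low in both shSix4 groups, and Myh11 and both Myocd probes lie mostly at background.

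The 8 tested genes were among 12300 genes fitted with limma. Without a slide term, 0 of the 8 passed an adjusted p of 0.05 for MyoD in shSix4 cells, where 2.89% of all genes did, and 0 of 8 for MyoD in shLuc cells, where 6.28% did. Between shSix4 and shLuc cells 0 of 8 passed with MyoD (0.228% of all genes) and 0 of 8 with empty vector (0.0569% of all genes). At an unadjusted p under 0.05 the counts were 1, 0, 2 and 2 in the same order. Those of all 12300 genes were 1202, 2374, 960 and 547. Every array correlated best with arrays of its own slide once group means were removed, so the fit with the slide as a block is given beside each result whose call it changes. With that block, 1 of the 8 rose and 1 fell with MyoD in shLuc cells, where 9.89% of all genes rose and 15.7% fell. In shSix4 cells 0 of 8 passed, against 8.3% of all genes. In shSix4 cells relative to shLuc cells 1 of 8 fell with MyoD, against 2.59% of all genes, and 0 of 8 passed with empty vector, against 0.642%.

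**Figure D2:**
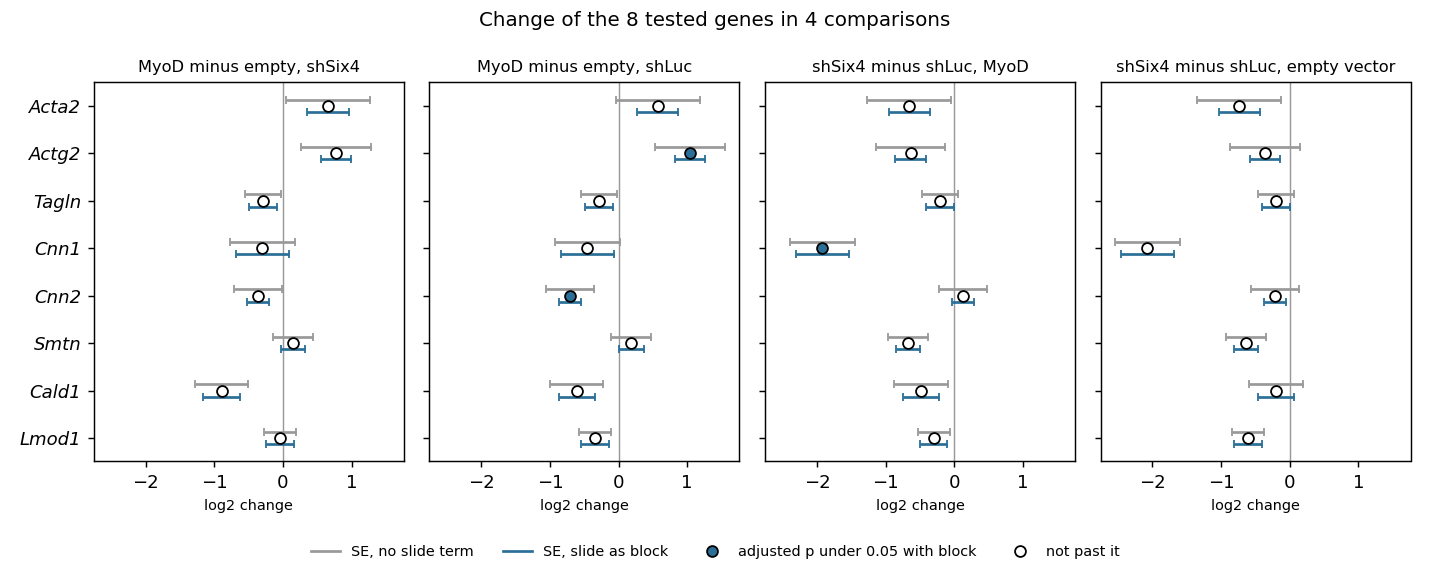
Log2 change (horizontal axes) of the 8 tested genes in 4 comparisons, with the SE of the fit without and with the slide as a block. Filled points pass an adjusted p of 0.05 with the block: Actg2 (+1.04) and Cnn2 (-0.71) for MyoD in shLuc cells, and Cnn1 (-1.92) between the lines with MyoD.

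With MyoD the smooth muscle actins had higher values in both lines, and Actg2 rose in shLuc cells in the fit with the slide as a block. Actg2, the gamma actin of visceral smooth muscle, read 5.11, 4.53 and 4.60 in shLuc cells with MyoD, against 4.34, 3.31 and 3.46 in shLuc cells with empty vector. The MyoD group lay above the empty-vector group without overlap, and slide 1 was the highest of each. The change was +1.04 ± 0.51 (2.06-fold, adjusted p = 0.297), and with the slide as a block its SE was 0.22 and its adjusted p 0.00921 (range over 26 alternatives 0.00359 to 1, 0.0719 without slide 2 and 0.116 without slide 3). In shSix4 cells Actg2 read 4.91, 3.56 and 3.86 with MyoD, against 4.53, 2.69 and 2.80 with empty vector. These groups overlapped, because the slide 1 array with empty vector exceeded the MyoD arrays of slides 2 and 3, but the MyoD array was the higher on every slide. The change was +0.77 ± 0.51 (adjusted p = 0.794, and 0.0657 with the block), and without slide 1 the blocked change was +0.97 with an adjusted p of 0.0139.

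Acta2, the alpha actin of vascular smooth muscle and myofibroblasts, is carried by 3 probes, which differed in the size of the change. The brightest, used for the gene, read 8.41, 6.93 and 7.09 in shSix4 cells with MyoD and 8.29, 5.93 and 6.25 with empty vector. In shLuc cells it read 8.62, 7.96 and 7.83 with MyoD, against 8.19, 7.58 and 6.91 with empty vector. MyoD arrays were higher on every slide in both lines, but the groups overlapped, and the changes of +0.65 ± 0.61 and +0.57 ± 0.61 did not pass (adjusted p = 0.931 and 0.684, and 0.225 and 0.189 with the block).

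Probe A_52_P210078 of Acta2 read 3.47, 3.05 and 3.59 in shSix4 cells with MyoD, against 2.06, 1.25 and 1.52 with empty vector. In shLuc cells it read 4.131, 4.004 and 3.995 with MyoD, against 2.49, 2.37 and 2.46 with empty vector. Both MyoD groups lay above both empty-vector groups, on all 3 slides. Tested over 24000 probes, its change was +1.76 ± 0.23 in shSix4 cells (3.39-fold, adjusted p = 0.00126) and +1.60 ± 0.23 in shLuc cells (3.04-fold, adjusted p = 0.00146). It was 1 of 12 tested probes of these genes to be called higher, against 2.13% of all probes in shSix4 cells and 3.66% in shLuc cells. Probe A_51_P450957 changed by +0.72 ± 0.58 in shSix4 cells and by +1.13 ± 0.58 in shLuc cells (adjusted p = 0.978 and 0.396). In the blocked fit the adjusted p of A_51_P450957 was 0.134 in shSix4 cells and 0.0132 in shLuc cells, where 8.31% of all probes were called higher. The skeletal and cardiac actins, whose coding sequences are close to those of Acta2, also rose with MyoD (Acta1 by +2.56 and +2.91 in shSix4 and shLuc cells). Whether any Acta2 or Actg2 probe also reads these transcripts was not tested.

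**Figure D3:**
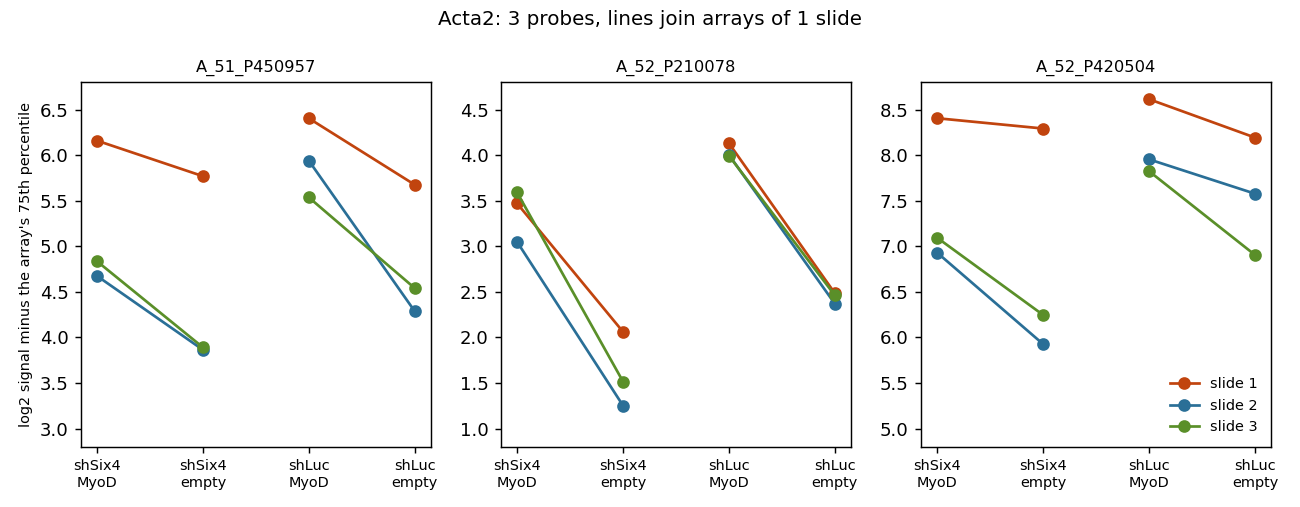
Level of the 3 Acta2 probes on each array (vertical axes, log2 signal minus the array's 75th percentile, each axis spanning the same range), with lines that join the MyoD and empty-vector arrays of 1 slide. The middle probe changes by +1.41 to +2.07 on every slide, while the brightest changes by +0.11 to +1.00.

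Among the filament-binding proteins, Cnn1, Cnn2, Cald1, Tagln and Lmod1 had lower means with MyoD in both lines, and Cnn2 fell in shLuc cells in the blocked fit. Of these, Cnn1 in shSix4 cells was -0.88 on slide 1 and -0.02 and -0.01 on the others, and turned to +0.34 without the first array of shSix4 cells with empty vector. Lmod1 turned to +0.11 and +0.04 in the 2 lines after normexp background correction. Cnn2, a calponin that is also expressed in non-muscle cells, read 5.44, 4.36 and 4.83 in shLuc cells with MyoD, against 6.05, 5.51 and 5.18 with empty vector. It was lower with MyoD on all 3 slides, with groups that overlapped. The change was -0.71 ± 0.35 (adjusted p = 0.309). In the blocked fit it was 0.0137, and the 26 alternatives spanned 0.0116 to 1. Leaving out any 1 slide lost the call, at a blocked adjusted p of 0.0588 to 0.0837. In shSix4 cells Cnn2 read 5.31, 4.80 and 4.89 with MyoD, against 5.99, 4.97 and 5.14 with empty vector, again lower on all 3 slides. That change was -0.36 ± 0.35 (adjusted p = 0.936, and 0.212 with the block).

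Cald1 encodes caldesmon, which binds actin and tropomyosin and holds back the myosin ATPase. It read 1.46, 3.20 and 2.12 in shSix4 cells with MyoD and 3.10, 3.29 and 3.07 with empty vector. In shLuc cells Cald1 read 2.22, 3.28 and 2.72 with MyoD, against 3.31, 3.54 and 3.19 with empty vector. The MyoD array was the lower on every slide in both lines, most on slide 1 and least on slide 2. The changes were -0.89 ± 0.39 and -0.61 ± 0.39 (adjusted p = 0.474 and 0.451, and 0.0717 and 0.116 with the block). Without slide 2 the blocked change in shSix4 cells was -1.29 with an adjusted p of 0.0332. The dimmer Cald1 probe, A_51_P357573, was also lower on every slide, by -0.63 ± 0.34 and -0.56 ± 0.34 (adjusted p = 0.756 and 0.486). In the blocked fit over probes it was 0.0598 in shSix4 cells and 0.0411 in shLuc cells, where 10.4% of all probes were called lower.

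Tagln, which encodes the actin cross-linker SM22 alpha, changed by -0.29 ± 0.26 with MyoD in shSix4 cells and by -0.28 ± 0.26 in shLuc cells (adjusted p = 0.922 and 0.624). Its second probe changed by -0.09 ± 0.76 and -0.73 ± 0.76, and on slide 1 read between 1.66 and 2.41 in the 4 groups, against -0.26 to 1.46 on slides 2 and 3. Smtn, for the cytoskeletal protein smoothelin, changed by +0.15 ± 0.29 and +0.18 ± 0.29 (adjusted p = 0.997 and 0.802). Lmod1, for the actin filament nucleator leiomodin 1, changed by -0.04 ± 0.23 and -0.35 ± 0.23 (adjusted p = 0.998 and 0.474). For Smtn and Lmod1 the 3 slides did not share a direction in either line. The median change of the 8 genes was -0.16 in shSix4 cells, where that of all genes was -0.06, and -0.32 in shLuc cells, where that of all genes was -0.14.

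Between the hairpin lines the widest gap of the 8 genes was in Cnn1, the calponin of differentiated smooth muscle. With MyoD it read -1.51, -2.65 and -2.46 in shSix4 cells, against -0.45, -0.18 and -0.22 in shLuc cells. With empty vector it read -0.64, -2.63 and -2.45 in shSix4 cells, against 0.31, 0.35 and -0.14 in shLuc cells. Every shSix4 array lay below every shLuc array of the same vector, and slide 1 showed the smallest gap.

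Cnn1 averaged -2.21 ± 0.61 in shSix4 cells and -0.29 ± 0.15 in shLuc cells with MyoD (SD, n = 3 each), a difference of -1.92 ± 0.47 (3.79-fold lower in shSix4 cells). Its adjusted p was 0.149, and with the slide as a block it was 0.0278, so that Cnn1 fell in shSix4 cells by that test (range over 26 alternatives 0.00882 to 0.937, with 4 under 0.05). With empty vector Cnn1 averaged -1.91 ± 1.103 in shSix4 cells and 0.17 ± 0.27 in shLuc cells, a difference of -2.08 ± 0.47 (4.22-fold lower). There the adjusted p was 0.325, and 0.0562 with the block (range over 26 alternatives 0.00391 to 1, with 2 under 0.05). Without slide 2 or slide 3 the blocked adjusted p for the MyoD cells was 0.157 or 0.334, and without slide 1 that for the empty vector was 0.00391. Without the first array of shSix4 cells with empty vector and without a block, the adjusted p was 0.0259 with MyoD, at a difference of -1.92, and 0.0194 with empty vector, at a difference of -2.71. On slides 1, 2 and 3 shSix4 cells differed in Cnn1 by -1.06, -2.46 and -2.24 when they carried MyoD. For the empty vector the same slides gave -0.94, -2.98 and -2.31. The MyoD effect on Cnn1 was small beside this, -0.30 ± 0.47 in shSix4 cells and -0.45 ± 0.47 in shLuc cells (adjusted p = 0.994 and 0.675).

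The 7 other tested genes differed less between the lines, and none of them passed with or without the block. Smtn read 1.11, 0.79 and 0.84 in shSix4 cells with MyoD, against 2.07, 0.99 and 1.71 in shLuc cells with MyoD. With empty vector Smtn read 1.15, 0.56 and 0.59 in shSix4 cells, against 1.76, 1.35 and 1.11 in shLuc cells. It was lower in shSix4 cells on all 3 slides with either vector, with groups that overlapped. The differences were -0.68 ± 0.29 and -0.64 ± 0.29 (adjusted p = 0.598 and 0.999, and 0.0684 and 0.155 with the block).

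Lmod1 read 1.23, 1.46 and 1.66 in shSix4 cells with empty vector, against 1.88, 2.36 and 1.94 in shLuc cells with empty vector. These groups did not overlap, and the difference was -0.61 ± 0.23 (adjusted p = 0.999, and 0.218 with the block). With MyoD the Lmod1 difference was -0.30 ± 0.23 (adjusted p = 0.974), with groups that overlapped. The actins differed by -0.65 ± 0.61 (Acta2) and -0.64 ± 0.51 (Actg2) with MyoD, lower in shSix4 cells on every slide. With empty vector they differed by -0.74 ± 0.61 and -0.36 ± 0.51, lower on slides 2 and 3 and higher on slide 1. Acta2 probe A_52_P210078 was lower in shSix4 cells on all 3 slides with either vector, without overlap, by -0.67 ± 0.23 with MyoD and by -0.83 ± 0.23 with empty vector (adjusted p = 0.455 and 0.701, and 0.0765 and 0.0882 in the blocked fit over probes). By the probes used for the genes, Tagln, Cald1 and Cnn2 differed by between -0.48 and +0.13 in these 2 comparisons. Of these, Cald1 was lower in shSix4 cells on all 3 slides with either vector, by -0.48 ± 0.39 and -0.20 ± 0.39. Its dimmer probe was higher on slide 2 with empty vector, by +0.10. The second Tagln probe differed by -0.18 ± 0.76 with MyoD and by -0.82 ± 0.76 with empty vector (adjusted p = 0.815 and 0.309 in the blocked fit over probes). With empty vector its difference was +0.01, -1.72 and -0.73 on slides 1, 2 and 3.

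The median difference of the 8 genes was -0.56 with MyoD and -0.48 with empty vector, where that of all genes was +0.03 and -0.03. The value was negative for 7 of 8 genes with MyoD and for 8 of 8 with empty vector. That count depended on how background was removed. After normexp background correction 4 of the 8, namely Actg2, Tagln, Cnn2 and Cald1, were higher in shSix4 cells with empty vector, by +0.17, +0.19, +0.39 and +0.08. Cnn1 remained the lower in shSix4 cells after that correction, by -1.66 with MyoD and by -1.61 with empty vector, with adjusted p of 0.718 and 0.696 in the blocked fit. Because whole cultures were measured, fewer cells of a type and less RNA per cell cannot be told apart.

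**Figure D4:**
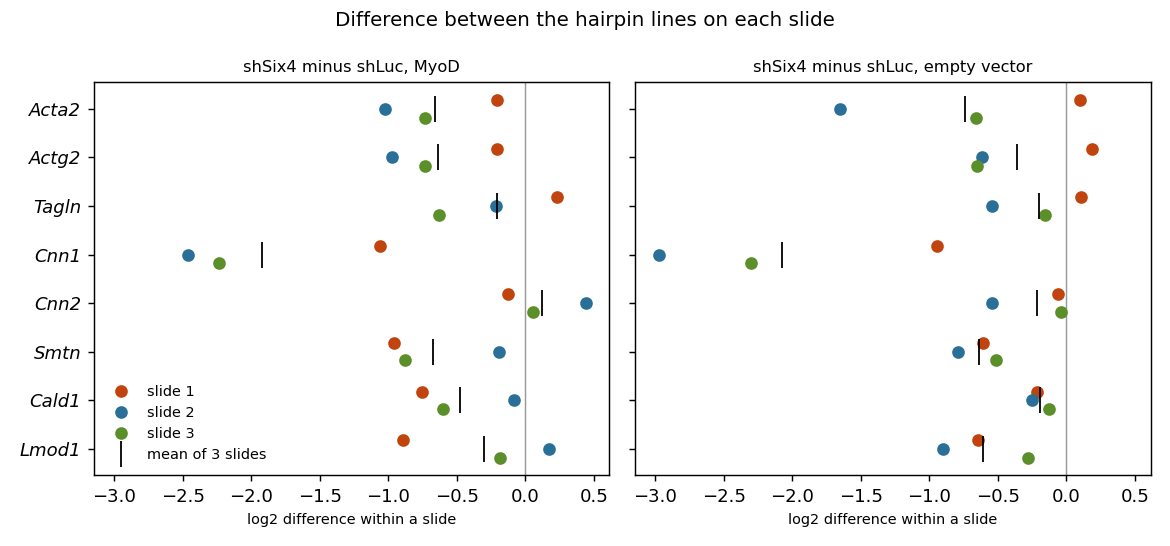
Difference between shSix4 and shLuc cells on each slide (horizontal axes, log2), with MyoD and with empty vector, and the mean of the 3 slides as a bar. Cnn1 lies between -2.98 and -0.94 on every slide, and Smtn and Cald1 are also below 0 on every slide, while Acta2, Actg2 and Tagln lie above 0 on slide 1 with empty vector.

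Whether the MyoD effect differed between the lines was tested as an interaction. In that test 0 of the 8 genes passed, with or without the block, against 0% of all genes in either fit. Without the block 0 of the 8 had an unadjusted p under 0.05, against 249 of all 12300 genes. The interaction ran between -0.28 (Cald1) and +0.34 (Cnn2), with SE of 0.33 to 0.86 in the fit without the block. With the block the SE of the interaction ran from 0.23 (Cnn2) to 0.55 (Cnn1). The size of difference that the test could detect was not computed. The lack of calls thus does not show that the MyoD effect was equal in the lines.

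Slide 1 stood apart for some of the 8 genes. Its mean over the 4 groups exceeded that of slides 2 and 3 by 1.32 for Acta2, 1.12 for Actg2, 0.74 for Cnn2, 0.73 for Cnn1 and 0.53 for Smtn. For Cald1, Lmod1 and Tagln it was lower, by -0.53, -0.24 and -0.10. A slide term lowered the residual SD to 0.44 for Acta2, against 0.85 without it, and to 0.30 for Actg2, against 0.70 without it, but only to 0.57 for Cnn1, against 0.65 without it. The 5 genes whose profile over the 12 arrays was most like the mean of the 8 were Sgo2a, Cit, Hmgb2, Cdkn2c and Stmn1, with Pearson r of 0.979 to 0.954. All 12 arrays share the slides, and the 5 genes were chosen on these same arrays, so this is a description. The 8 genes did not share 1 profile, with pairwise r from -0.553 (Actg2 and Cald1) to 0.937 (Acta2 and Actg2). Likeness to their mean is thus not likeness to each of them. Sgo2a (shugoshin, which protects centromeric cohesion), Cit (citron kinase, of cytokinesis) and Stmn1 (stathmin, a microtubule regulator) have roles in cell division. Sgo2a read 0.19, -0.47 and -0.85 in shSix4 cells with MyoD and 1.00, 0.60 and 0.68 in shLuc cells with MyoD. With empty vector it read 1.21, -0.93 and -1.51 in shSix4 cells and 1.76, 1.19 and 0.47 in shLuc cells. The values of shSix4 cells were below those of shLuc cells on all 3 slides with either vector. The mean of the 8 genes, by which these 5 were chosen, had that order too. Their direction is thus no separate result, and no line difference of these 5 genes passed (blocked adjusted p 0.0991 to 0.239).

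The regulators of the programme were listed as 24 genes, of which 18 were tested. With MyoD 2 rose and 0 fell in shSix4 cells, where 2.79% of all genes rose and 0.106% fell, and 2 rose and 1 fell in shLuc cells, where 4.72% rose and 1.56% fell. With the block 3 rose and 2 fell in shSix4 cells, against 5.7% and 2.6% of all genes, and 3 rose and 5 fell in shLuc cells, against 9.89% and 15.7%. Their median change was +0.03 and -0.16, where that of all genes was -0.06 and -0.14.

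Srf, which encodes the factor that binds CArG boxes, read 2.96, 2.57 and 2.59 in shSix4 cells with MyoD, against 1.90, 2.10 and 1.65 with empty vector. In shLuc cells Srf read 2.99, 2.75 and 2.57 with MyoD, against 2.14, 2.39 and 1.88 with empty vector. The groups did not overlap in either line, and the changes were +0.82 ± 0.21 and +0.63 ± 0.21 (adjusted p = 0.0679 and 0.110, and 0.00764 and 0.0132 with the block). The SRF cofactor genes did less: Mrtfa changed by -0.29 ± 0.22 and -0.40 ± 0.22 (adjusted p = 0.855 and 0.370, and 0.190 and 0.0406 with the block), and Mrtfb by +0.05 ± 0.57 and -0.18 ± 0.57.

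Klf4, a repressor of smooth muscle genes, read 4.397, 5.995 and 5.151 in shSix4 cells with MyoD and 5.57, 6.42 and 6.17 with empty vector. In shLuc cells Klf4 read 4.57, 5.37 and 5.21 with MyoD, against 5.72, 6.17 and 5.88 with empty vector. It was lower with MyoD on every slide, by -0.87 ± 0.38 in both lines (adjusted p = 0.478 and 0.243, and 0.0250 and 0.0118 with the block). Klf5, a related factor, rose by +1.13 ± 0.21 in shSix4 cells and +1.70 ± 0.21 in shLuc cells (adjusted p = 0.0112 and 0.000396). Pdgfb, the growth factor that draws mural cells to vessels, rose by +1.56 ± 0.27 and +1.16 ± 0.27 (adjusted p = 0.00768 and 0.0277). Gata6, a zinc finger factor of smooth muscle, changed by -0.68 ± 0.45 and -0.82 ± 0.45, and Tgfbr2, a receptor for transforming growth factor beta, by -0.29 ± 0.45 and -0.62 ± 0.45. With the block Gata6 fell in both lines (adjusted p = 0.0362 and 0.00728) and Tgfbr2 in shLuc cells (0.0229). Csrp2, a LIM protein of smooth muscle, changed by -0.58 ± 0.23 in shSix4 cells (adjusted p = 0.386) and fell by 1.04 ± 0.23 in shLuc cells (adjusted p = 0.0222).

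Between the lines 0 of the 18 regulators passed without the block, against 0.228% of all genes with MyoD and 0.0569% with empty vector. With the block, Notch3, the receptor that maintains vascular smooth muscle, fell in shSix4 cells with either vector. Of all genes 2.59% fell in that fit with MyoD and 0.496% with empty vector. Notch3 read 0.96, 1.19 and 1.36 in shSix4 cells with MyoD, against 1.49, 2.20 and 2.13 in shLuc cells with MyoD. With empty vector it read 0.28, 0.84 and 1.05 in shSix4 cells, against 0.98, 1.93 and 1.72 in shLuc cells. It was lower in shSix4 cells on all 3 slides, by -0.77 ± 0.30 and -0.82 ± 0.30 (adjusted p = 0.493 and 0.927, and 0.0209 and 0.0422 with the block). Tgfbr2 rose in shSix4 cells with MyoD by +0.71 ± 0.45 (adjusted p = 0.881, and 0.0424 with the block, where 1.75% of all genes rose). Gata6, Notch3 and Tgfbr2 are named after their values were seen.

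Other genes of the contractile apparatus were listed as 32, of which 26 were tested. With MyoD 2 rose in shSix4 cells and 4 in shLuc cells, against 2.79% and 4.72% of all genes. None fell, against 0.106% and 1.56% of all genes. With the block 4 rose and 0 fell in shSix4 cells (5.7% and 2.6% of all genes), and 5 rose and 5 fell in shLuc cells (9.89% and 15.7% of all genes). Those that rose without the block in both lines were Des, for the intermediate filament desmin, which was above background on 0 and 1 arrays of the empty-vector groups and is given no fold, and Nexn, for the actin-binding nexilin (by +1.54 ± 0.17 and +1.76 ± 0.17, adjusted p = 0.000287 and 6.58e-05). Tpm2, for beta tropomyosin, rose in shLuc cells by +1.54 ± 0.34 (adjusted p = 0.0194). In shSix4 cells its change was +1.07 ± 0.34 (adjusted p = 0.181, and 0.00104 with the block). Des, Nexn and Tpm2 also serve striated muscle. Tpm1 changed by +0.13 and +0.06, Tpm4 by -0.17 and -0.68, the third calponin Cnn3 by +0.21 and +0.19, the adhesion protein gene Vcl by -0.35 and -0.36, and the filamin gene Flna by -0.26 and -0.44. Of these, Tpm4 (adjusted p = 0.0389) and Flna (0.0376) passed in shLuc cells with the block only. Also past the threshold there in the blocked fit were Mylk (+0.74 ± 0.36, adjusted p = 0.0141), and, with lower values, Tln1 for talin (-0.44 ± 0.32, 0.0458), Lpp of adhesion sites (-0.68 ± 0.27, 0.0201) and Pcp4l1 (-0.87 ± 0.24, 0.00854), with the SE of the fit without the block.

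Mylk, for the kinase that starts smooth muscle contraction by phosphorylating the myosin light chain, read -2.21, -1.27 and -1.15 in shSix4 cells with MyoD, against -0.52, -0.40 and -0.12 in shLuc cells with MyoD. With empty vector Mylk read -2.64, -1.67 and -1.47 in shSix4 cells, against -1.51, -1.01 and -0.75 in shLuc cells. The groups did not overlap with MyoD, and on each slide the shSix4 array was the lower with either vector. The differences were -1.20 ± 0.36 and -0.84 ± 0.36 (adjusted p = 0.254 and 0.999, and 0.0101 and 0.0714 with the block). With the block Des, by -1.91 ± 0.32, and Ppp1r12a, a subunit of myosin phosphatase, by -0.95 ± 0.16, also fell in shSix4 cells with MyoD (adjusted p = 0.0149 and 0.0146). In that fit 2.59% of all genes fell. With empty vector 0 of the 26 passed in the blocked fit, against 0.642% of all genes. Ppp1r12a was lower in shSix4 cells there too, at -1.88, -2.035 and -2.354, against -1.289, -1.453 and -1.427 in shLuc cells. These groups did not overlap. The median difference of the 26 was -0.13 with MyoD and -0.24 with empty vector.

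Among the actins of other tissues, the skeletal Acta1 rose in both lines (adjusted p = 0.0112 in shSix4 cells and 0.00295 in shLuc cells). The cardiac Actc1 changed by +1.34 ± 0.58 and +1.73 ± 0.58 (adjusted p = 0.459 and 0.117, and 0.0278 and 0.00402 with the block). The cytoplasmic actins did not pass in any comparison, and changed with MyoD by -0.43 and -0.12 (Actb) and by +0.12 and +0.03 (Actg1) in shSix4 and shLuc cells.

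**Figure D5:**
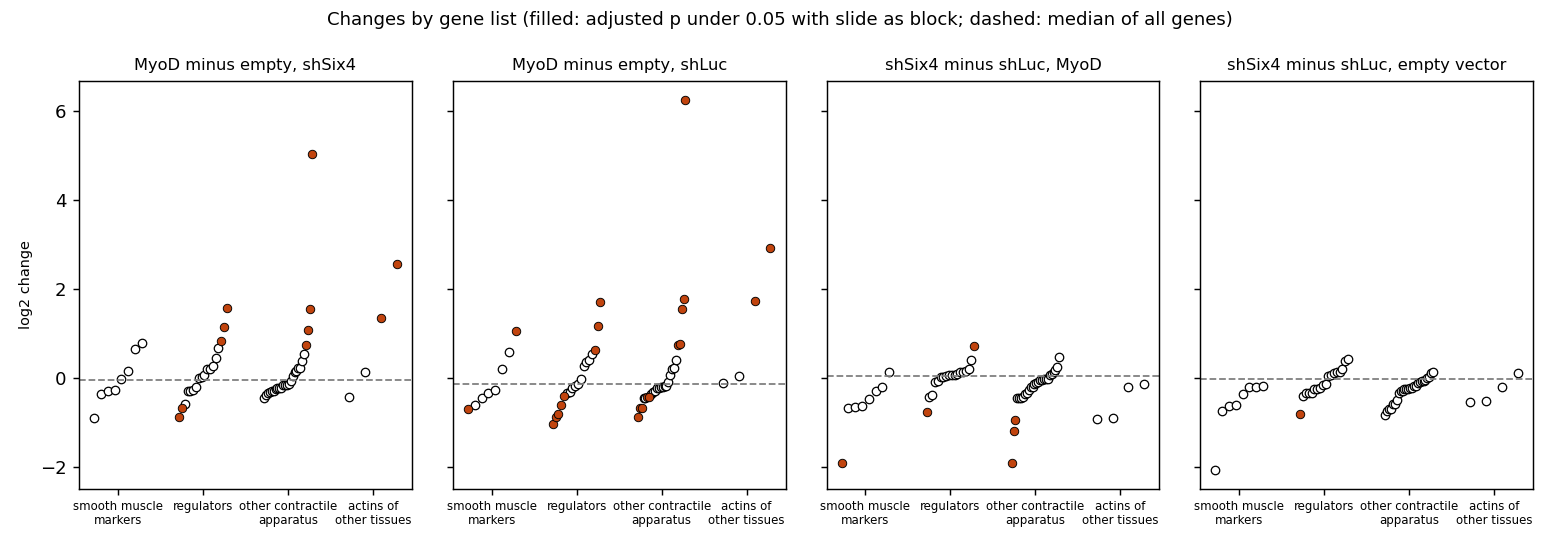
Log2 change (vertical axis) of each tested gene in 4 lists and 4 comparisons, ordered by size within a list. The highest point of the apparatus list with MyoD is Des in each line, the smooth muscle markers stay between -0.89 and +1.04 with MyoD, and Cnn1 is the lowest of them in both line comparisons.

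The labelled cell type was checked against fixed marker lists, with summed linear signal relative to the 75th percentile of each array. Of 11 fibroblast markers, 11 were well above background on every array in shLuc cells with MyoD and 10 in each of the other groups. Without the block none of them passed in any comparison. With it 5 fell and 1 rose with MyoD in shLuc cells, against 15.7% and 9.89% of all genes, and 0 passed in shSix4 cells. The 1 that rose was Fap, which entered the test only through shLuc cells with MyoD. It was above background on all 3 arrays of that group and on 0 or 1 array of each other group. That call is thus no separate evidence of a rise. Between the lines 2 of the 11 markers fell and 1 rose with MyoD, against 2.59% and 1.75% of all genes, and 1 fell with empty vector, against 0.496%. Of 5 endothelial markers, Pecam1, Cdh5, Kdr and Tie1 were above background on no array. The fifth, Tek, was on every array of 3 groups and on 2 of 3 arrays of shSix4 cells with MyoD. Of 5 leukocyte markers, Ptprc was above background on no array, and Coro1a and Cd3e on all 12. Of 4 epithelial markers, Epcam was on no array, Cdh1 on all 12, and Krt8 and Krt18 on some. Of 4 adipocyte markers, Pparg and Fabp4 were on all 12, and Adipoq and Plin1 on no array of shSix4 cells with either vector. Of 6 mural cell markers (pericytes and vascular smooth muscle), 4 were above background on every array of each group but shLuc cells with MyoD, where 5 were. Their summed level was 9.74 to 11.4 in shSix4 cells with MyoD and 10.1 to 12.6 in shLuc cells with MyoD, against 15 to 19.8 and 17.1 to 17.3 in the empty-vector groups of these lines. The brightest signal in this sum is that of Cspg4, which fell with MyoD by 1.01 ± 0.19 in each line (adjusted p = 0.0110 in shSix4 and 0.00671 in shLuc cells). The median change of the 5 tested mural markers was instead +0.45 in shSix4 cells, with 4 positive, and +0.40 in shLuc cells, with 3 positive. Kcnj8 and Abcc9 were above background on no array of either empty-vector group, and Abcc9 was on all 3 of shLuc cells with MyoD. Between the lines the median difference of the 5 was -0.77 with MyoD and -0.82 with empty vector, with 4 of 5 negative for each vector. With the block Abcc9 and Notch3 fell in shSix4 cells with MyoD, and Notch3 with empty vector, against 2.59% and 0.496% of all genes. Abcc9 was above background on 1 of 3 arrays of shSix4 cells with MyoD. It entered the test only through shLuc cells with MyoD, where it is high, so its call is no separate evidence of a fall. The Notch3 calls are those already given among the regulators. The part of any of these markers in the changes and line differences of the smooth muscle genes was not tested.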

How the data were processed

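Each deposited scanner file gives the linear Cy3 intensity of the spots of 1 array, from Agilent Feature Extraction run by the authors (11.5.1.1 per the file headers, 10.5.1.1 per the submitters' processing notes) from 300 ng of labelled RNA. The processed signal is background-subtracted, per the file headers. The authors' deposited table of log2 values, used only as an alternative, has 3867 of the probes used here and column medians of 8.66 to 8.72. It tracked the scanner values of its own arrays (r 0.999 to 1.00). It holds levels, not gene-centred values, and its normalization is named only by its title.

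Groups were taken from the sample titles. The description field names another cell line and was not used. Processed signals were taken to log2 and lowered by the 75th percentile of their array (non-control spots). Control spots and outlier-marked spots were left out, and no spot was saturated. Spots of a probe were averaged. A probe entered the test if 1 group or more had it well above background on its 3 arrays, as 24000 of 41174 did. Accessions were matched to RefSeq symbols (24844 probes named), and the probe with the highest mean stood for its gene. Array design coordinates are of an older build and are not printed.

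The test was limma 3.58.1 (R 4.3.3, jsonlite 2.0.0), with all 12 arrays, Benjamini-Hochberg adjustment over 12300 genes and a threshold of 0.05. There were 5 comparisons. Errors of changes are limma standard errors. The code was tested on simulated data. The replicate number is the slide in the file headers. Same-slide arrays of different groups correlated at 0.278 to 0.819 over 12144 genes after group means were removed (18 of 18 pairs over 0.1), so the slide was also fitted as a block. The 10 members and the gene lists were chosen with earlier results of these data known. Named genes were all members, 19 fixed genes of the lists, any listed gene past the threshold (1 is not reported here), and the 5 genes most like the members' mean. Of the fixed genes, Myl9 and Tgfb1i1 were not analysed here, and Mkl1 and Mkl2 are printed as Mrtfa and Mrtfb. Normexp (offset 50) used the median signal and background. The number of arrays limits the precision.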

Additional observations from a re-analysis of the deposited data

How the results depend on the processing

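Without the slide, the 8 tested genes gave 0 calls in each of the 5 comparisons. Over all 26 refits Cnn1 kept its direction between the lines with either vector, and Actg2 and Cnn2 kept theirs for MyoD in shLuc cells. The replicate block, which uses the pairing of replicate number and slide, gave 2 calls for MyoD in shLuc cells and 1 for the line difference with MyoD, and changed no other count of members. It raised the genes called to 1021 and 3153 for MyoD in shSix4 and shLuc cells, against 356 and 772, and to 533 and 79 for the line with MyoD and with empty vector, against 28 and 7. The other refits with the block were chosen after seeing the data. Without slide 1 they called 1, 1, 2 and 1 of the 8 genes (Actg2 for MyoD in each line, Actg2 and Cnn1 between the lines with MyoD, Cnn1 with empty vector) and 586, 1619, 613, 432 and, for the interaction, 1 of all genes. Without slide 2 they called 1 of the 8 (Cald1, MyoD in shSix4 cells) and 727, 1968, 0 and 0 genes, and without slide 3 they called 290 and 641 genes for MyoD and 3 and 0 between the lines. With quantile normalization and the block the members called were 2 for MyoD in shLuc cells and 1 for the line with MyoD, and the genes 1103, 3114, 605, 83 and 2. Normexp called 0 of the 8 genes, and 49, 86, 0 and 0 genes in all (70, 133, 0 and 0 with the block). The authors' table, with 2638 genes tested, called 51, 157, 3 and 1 genes (MyoD in each line, the line with empty vector, the interaction). Only 3 of the 8 members were tested in it, and it lacks Cnn1, Actg2 and Cnn2. Probes above background on all arrays, with 10941 genes tested, gave 154, 457, 6 and 4 genes. No filter on dim probes, with 17178 genes tested, gave 2 and 2 between the lines. Only the groups compared gave 227 for MyoD in shSix4 cells and 0 and 0 between the lines. The mean of a gene's probes gave 50 for the line with MyoD, quantile normalization 4 for the line with empty vector, and trended and robust estimation 2 and 3 between the lines. Leaving out 1 array at a time gave 266 to 367 and 490 to 876 genes for MyoD in shSix4 and shLuc cells, 1 to 45 and 1 to 9 between the lines, and 0 to 1 members in each line comparison, the call being Cnn1 without the first array of shSix4 cells with empty vector. The cause was not tested. Keeping outlier-marked spots moved no count by over 1.5 times. With 3 arrays a group on 3 slides, changes of about 1 and line differences of about 2 on the log2 scale could pass or miss the threshold by the handling of the slide.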
